A study of Mus musculus with 13 samples.

Results

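Eosinophils sorted from the thymus of Rag-KO mice were compared with eosinophils sorted from the spleen and the lung, the peripheral organs of the study. The comparison rested on 8 of the 13 RNA-seq libraries, namely the 2 Rag-KO + control libraries, 3 WT spleen libraries and 3 WT lung libraries, chosen by their labels. A difference was counted only where it had the same direction against spleen and against lung. Rag-KO + control replicate 1 came from Rag2-/- mice and replicate 2 from Rag1-/- mice, and both had received hamster IgG and were taken on day 10. The spleen and lung libraries came from WT C57BL/6N mice that carried no Rag deletion and had received no IgG, so organ, genotype and injection cannot be told apart in this comparison. Mice were 8 to 10 weeks old. The cells were sorted as CD11b+ Siglec-F+ cells. Thymus and lung were digested with enzymes before sorting whereas spleen was mashed, so that organ and preparation cannot be told apart either.

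Eosinophils are granulocytes that store cationic proteins in their granules and depend on interleukin-5. In the mouse they are also resident in several healthy organs, the thymus among them. Rag1 and Rag2 form the recombinase that cuts antigen receptor genes, and without either protein thymocytes stop at the double-negative stage. The Rag-KO thymus is therefore an organ in which eosinophils reside without double-positive thymocytes. The expression values were RPKM, that is, reads per kilobase of transcript scaled to the mapped reads of the library, and the library totals of the 8 libraries were between 4765122 and 6315086 reads.

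The label of the cells was checked first. Siglecf, the surface lectin used in the sort, was at 381 and 415 RPKM in the 2 Rag-KO + control libraries and at 73.4 to 288 in spleen and lung. Ccr3, the eotaxin receptor, was at 608 and 625 RPKM in Rag-KO + control and at 506 to 1185 in the periphery. Il5ra, the interleukin-5 receptor chain, was at 100.1 and 37.4 RPKM against 7.98 to 72.2. Siglecf, Ccr3 and Il5ra were thus present in all 8 libraries. The eosinophil granule genes were less even. Prg2 was at 188 and 3648 RPKM in Rag-KO + control against 32.9 to 206 in the periphery. Epx was at 7.64 and 340 RPKM against 0.0780 to 1.08. Of 9 markers of double-positive thymocytes, the summed level was 2.82 and 1.2 RPKM in Rag-KO + control, 0 to 0.730 in the periphery and 6.27 to 28.5 in the 3 WT thymus libraries. Rag1 was listed at 0.153 RPKM in the Rag2-/- library and at 0.0240 in the Rag1-/- library, and at 0.776 to 3.29 in WT thymus. It was at 0 throughout the WT spleen and lung libraries, so its level near 0 in both knockout libraries does not check the genotype.

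Several libraries stood apart from the others of their group. Mitochondrially encoded genes took 22% of the summed RPKM of spleen replicate 3 and 1.60% to 6.02% of that of the remaining 12 libraries. Lung replicate 3 held Lyz2, the lysozyme of macrophages and other myeloid cells, at 3579 RPKM, against 119 and 446 in the other lung libraries. Rag-KO + control replicate 2 held Ly6c2, a monocyte surface protein, at 2440 RPKM against 79.7 in replicate 1. It also held Elane, the elastase of early neutrophil granules, at 1002 RPKM against 18.6 in replicate 1, 1000 in spleen replicate 3 and 0 in the other 5 peripheral libraries. The macrophage and monocyte list of 18 markers summed to 286 and 2737 RPKM in Rag-KO + control and to 237 to 656 in the periphery. Ly6c2 is a member of this list and held 79.7 and 2440 RPKM of the Rag-KO + control sums, so most of the larger sum was this gene. Of the 13 tested members of the list, 9 were more than 2-fold higher in replicate 2 than in replicate 1 on the log2(RPKM + 1) scale and none the other way. Among these markers C1qa, C1qb and C1qc, which define macrophages, were at 3.92 to 21.8 RPKM in Rag-KO + control and at 0 to 32.9 in the periphery. Cd5l and Marco were at 0 in both Rag-KO + control libraries and at 0 to 4.12 in the periphery. The neutrophil list of 16 measured markers summed to 1039 and 5639 RPKM in Rag-KO + control and to 37.2 to 27094 in the periphery. The upper end of that range was spleen replicate 3, and the other peripheral libraries held 37.2 to 789 RPKM, which is under both Rag-KO + control libraries. The part of these cells in the results below was not tested, and results are given in each Rag-KO + control library for that reason.

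Of 9763 genes tested, 67 were higher in Rag-KO + control than in spleen and lung and 14 were lower, which is 0.686% and 0.143% of the genes tested. The test was limma on log2(RPKM + 1), with an adjusted p under 0.05 and a change of more than 1 on the log2 scale against the mean of both organs. At an unadjusted p under 0.05 and with the same limit of size, 464 genes were higher and 78 were lower. The median gene was itself 0.23 higher on the log2 scale in Rag-KO + control. After quantile normalization, which removes this shift, 41 genes were higher and 34 lower, and after upper-quartile scaling the counts were 41 and 32. Of the 67 higher genes, 30 passed the threshold against spleen and against lung each on its own, and so did 5 of the 14 lower genes. Against spleen alone 0.758% of the genes tested were higher and 0.164% lower, and against lung alone 0.563% and 0.656%. The 2 Rag-KO + control libraries lay above all 6 peripheral libraries for 61 of the 67 higher genes. Of all genes tested, 12.2% did so. They lay below all 6 for 13 of the 14 lower genes, against 2.12% of all genes tested. The genes were called on these same libraries, so this separation is not independent evidence.

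**Figure D1:**
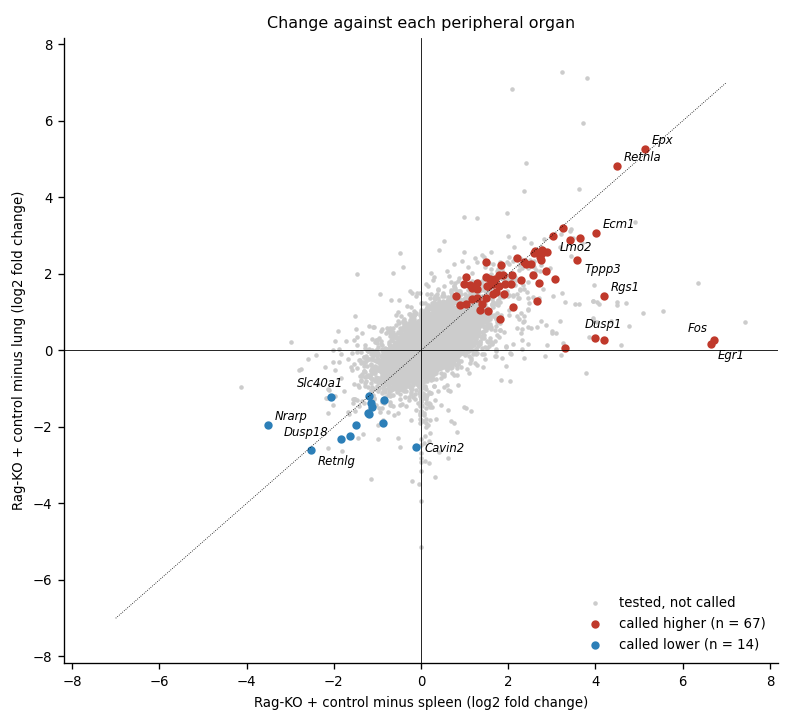
Log2 fold change of Rag-KO + control against spleen (x axis) and against lung (y axis) for each gene tested; red and blue points are the 67 genes called higher and the 14 called lower, and the dotted line marks equal changes. Retnla and Epx lie near the line at changes above 4 against both organs, whereas Fos, Egr1 and Dusp1 are changed against spleen and lie near 0 against lung.

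A pair of resistin-like genes moved in opposite directions. Retnla encodes RELM-alpha, a small secreted protein known in macrophages as a target of interleukin-4 and interleukin-13 through STAT6. Retnlg encodes RELM-gamma, a secreted relative known from bone marrow and myeloid cells. They are neighbours on chromosome 16, Retnla at chr16:48842551-48844461 and Retnlg at chr16:48872621-48874496 on the plus strand of mm10. Retnla was at 2160 and 1966 RPKM in Rag-KO + control, and at 75.4, 76.5 and 127 in spleen and 94.8, 40.8 and 95.0 in lung. The lower Rag-KO + control library was thus 15.5-fold above the highest peripheral library. The change was 4.66 on the log2 scale (SE 0.34, limma adjusted p = 7.43e-05), 4.95 within the libraries compared with Rag-KO + control replicate 1 and 4.15 within those compared with replicate 2. Retnlg was at 2603 and 3199 RPKM in Rag-KO + control, at 15189, 12223 and 24507 in spleen and at 20005, 17479 and 15613 in lung. The groups did not overlap, as the choice of the largest named changes required, and the change was -2.57 (SE 0.33, limma adjusted p = 0.00351). The remaining members of the family were low, Retnlb at 0.484 and 1.59 RPKM in Rag-KO + control and Retn at 0.213 and 0.

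WT thymus held both genes at a low level. Retnla was at 17.2, 16.8 and 21 RPKM there, which is under every spleen and lung library, and Retnlg was at 433, 290 and 579. Rag-KO + control was higher than WT thymus in Retnla by 6.74 on the log2 scale (SE 0.38, limma adjusted p = 5.50e-06) and in Retnlg by 2.79 (SE 0.37, limma adjusted p = 0.00465). In Rag-KO + anti-CD3 mice Retnla was at 560 and 475 RPKM and Retnlg at 4530 and 3159.

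The 250 bases before the RefSeq start of both genes are printed to show that both neighbours hold a match to a STAT-type motif although they moved in opposite directions. The gene positions given above are those of GENCODE, whose start of Retnla lies inside the printed window. Capitals mark TTC and GAA parted by 4 bases of any kind, the spacing bound by STAT6, searched on both strands. Each window held 1 match, and 5.85% of 32851 windows of the same length held at least 1. A match is a description of the letters and not of binding.
Retnla, chr16:48842359-48842608, plus strand, GRCm38.p6: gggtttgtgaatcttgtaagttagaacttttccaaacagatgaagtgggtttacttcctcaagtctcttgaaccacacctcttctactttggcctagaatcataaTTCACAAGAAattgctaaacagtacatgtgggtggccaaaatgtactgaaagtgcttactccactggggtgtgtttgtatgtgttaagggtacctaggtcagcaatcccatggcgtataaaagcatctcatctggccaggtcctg
Retnlg, chr16:48872358-48872607, plus strand, GRCm38.p6: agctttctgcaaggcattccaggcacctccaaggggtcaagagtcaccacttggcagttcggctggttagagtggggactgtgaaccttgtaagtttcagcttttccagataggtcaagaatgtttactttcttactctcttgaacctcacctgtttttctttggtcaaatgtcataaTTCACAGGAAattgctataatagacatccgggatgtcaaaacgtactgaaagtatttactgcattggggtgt

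**Figure D2:**
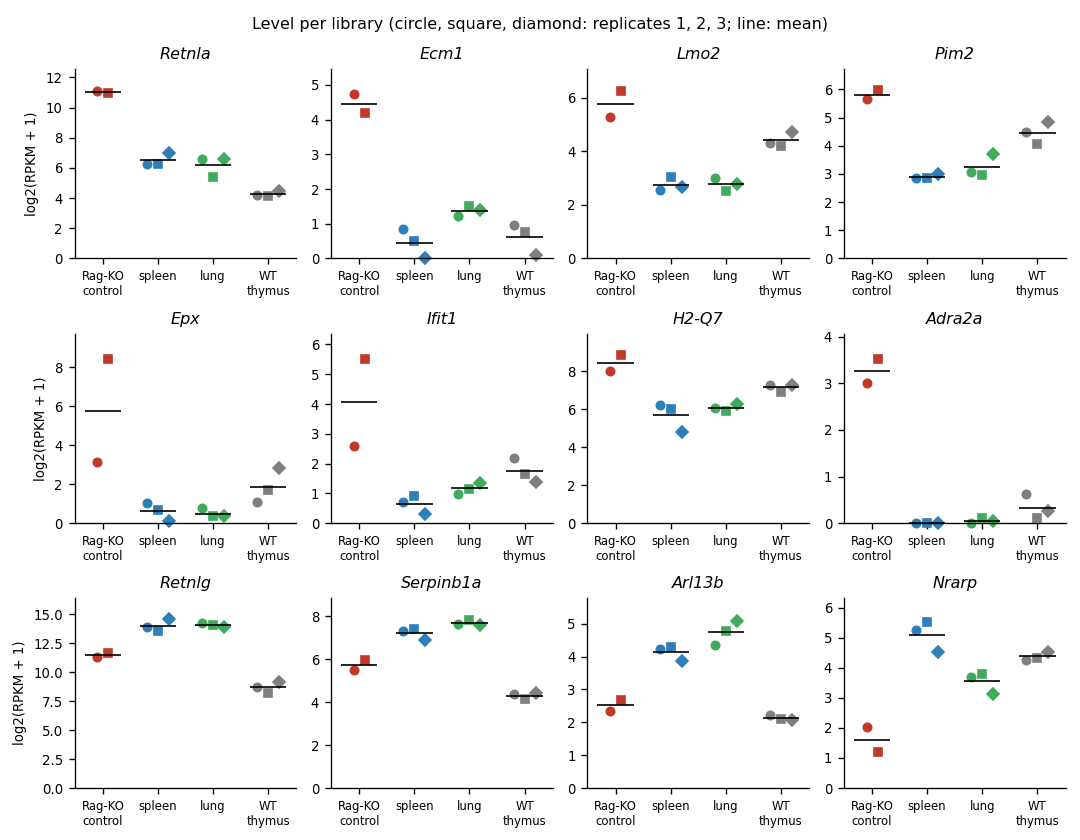
Level of 12 genes on the log2(RPKM + 1) scale in each Rag-KO + control, spleen, lung and WT thymus library; symbols are replicates and lines are group means. Both Rag-KO + control libraries lie above all 6 peripheral libraries in the first 8 panels and below them in the last 4, and in Epx and Ifit1 the 2 Rag-KO + control libraries lie far apart.

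Ecm1, Spp1, Cfp, Tppp3 and Naaladl1 were each higher than in the periphery and higher than in WT thymus. Ecm1, extracellular matrix protein 1, was at 25.6 and 17.1 RPKM in Rag-KO + control and at 0 to 1.87 in the 6 peripheral libraries, a change of 3.54 (SE 0.34, limma adjusted p = 0.000643). In WT thymus it was at 0.0796 to 0.941 RPKM. Spp1, the secreted phosphoprotein osteopontin, was at 11 and 9.80 RPKM against 0 to 3.54 in the periphery (change 2.48, SE 0.44, limma adjusted p = 0.0223). Cfp, the complement factor properdin, was at 161 and 206 RPKM in Rag-KO + control, at 27.2 to 70.2 in the periphery and at 11.9 to 18.6 in WT thymus. Its change against the periphery was 1.90 (SE 0.32, limma adjusted p = 0.0181), and it was named after its values were seen. Tppp3, a tubulin-binding protein, followed the same order, with 108 and 81.1 RPKM in Rag-KO + control, 1.70 to 18.8 in the periphery and 0.0996 to 0.505 in WT thymus. The change of Tppp3 was 2.98 (SE 0.59, limma adjusted p = 0.0425). Naaladl1, a peptidase related to the glutamate carboxypeptidases, was at 21.7 and 25.6 RPKM against 1.77 to 4.67 in the periphery and 1.5 to 3.25 in WT thymus (change against the periphery 2.40, SE 0.31, limma adjusted p = 0.00290).

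Adora2a and Adora2b, which encode adenosine receptors, were also higher. Adora2a was at 12.6 and 12.8 RPKM in Rag-KO + control and at 0 to 6.54 in the periphery (change 2.48, SE 0.47, limma adjusted p = 0.0345), and WT thymus held 0.386 to 1.22. Adora2b was at 18.4 and 31.9 RPKM against 0.938 to 9.53 in the periphery (change 2.57, SE 0.53, limma adjusted p = 0.0480). Adora2a, which the naming rules did not choose, and 4 further genes at a lower level are named after their values were seen. Adra2a, the alpha-2A adrenergic receptor, was at 7.04 and 10.5 RPKM in Rag-KO + control, at 0 in 4 peripheral libraries and at 0.0755 at most in the periphery (change 3.24, SE 0.24, limma adjusted p = 7.43e-05). Slc6a4, the serotonin transporter, was at 6.25 and 10.7 RPKM against 0 to 0.970. Adgrg5, an adhesion G protein-coupled receptor, was at 7.34 and 4.48 RPKM against 0 to 0.497. Fam3b, a secreted cytokine-like protein, was at 2.92 and 2.03 RPKM and was at 0 in 5 of the 6 peripheral libraries. The groups did not overlap for any of these 6 genes, which the choice of Adora2b among the largest named changes required. Fitted changes of the lowest genes depend on the pseudocount of 1.

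Lmo2, Pim2, Lrp12 and Slfn1 are examples of named higher genes whose WT thymus values also lay above those of the periphery. The spleen and lung libraries are shared by the comparisons of Rag-KO + control and of WT thymus, so their values are given side by side and no likeness was tested. Lmo2, a cofactor of blood cell transcription factors, was at 37.5 and 75.1 RPKM in Rag-KO + control and at 4.70 to 7.13 in the periphery, a change of 3.0 (SE 0.30, limma adjusted p = 0.000697). WT thymus held Lmo2 at 17.3 to 25.7 RPKM, a change of 1.65 against the same periphery. Pim2, a kinase induced by cytokines, was at 49.1 and 61.5 RPKM against 6.25 to 11.9 (change 2.73, SE 0.29, limma adjusted p = 0.00117), and WT thymus changed by 1.39. Lrp12, a receptor of the low-density lipoprotein receptor family, was at 20.9 and 60.2 RPKM against 3.04 to 7.44 (change 2.66, SE 0.41, limma adjusted p = 0.0110), and WT thymus changed by 1.51. Slfn1, a member of the schlafen family, was at 57.6 and 88.0 RPKM against 11.2 to 16.5 (change 2.31, SE 0.28, limma adjusted p = 0.00241), and WT thymus changed by 1.08. In WT thymus 2.86% of the genes tested were higher than in the periphery and 1.2% lower. None of the 4 genes differed between Rag-KO + control and WT thymus at the threshold, where 0.502% of the genes tested were higher and 0.584% lower in Rag-KO + control. A miss in groups this small does not show equal levels. Both Rag-KO + control libraries lay above all WT thymus libraries in Lmo2, and the changes of all 4 genes were larger in Rag-KO + control.

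**Figure D3:**
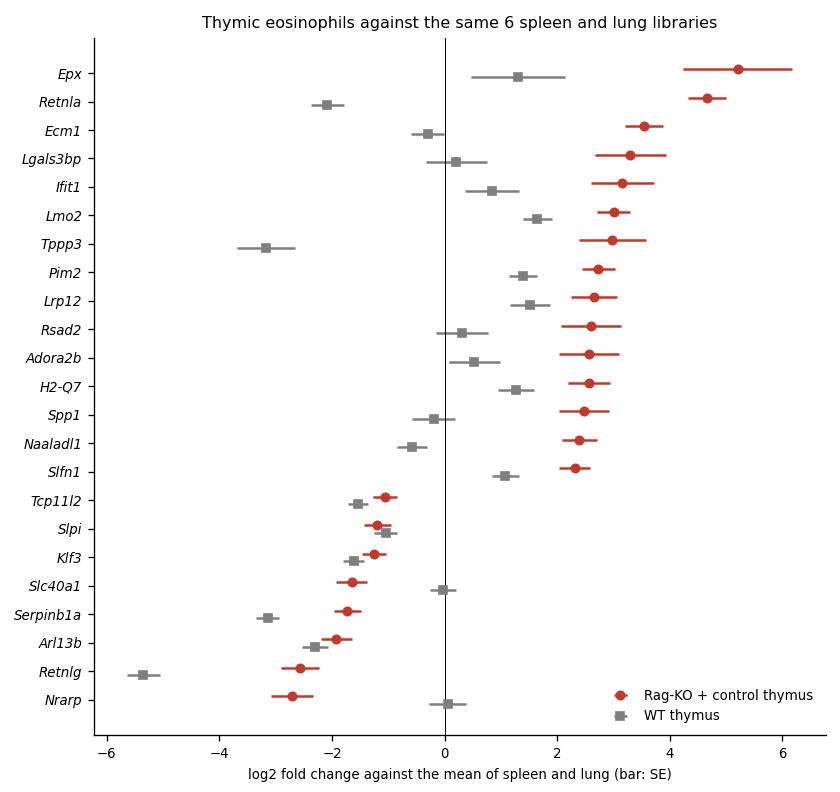
Log2 fold change of the 15 named higher and 8 named lower genes in Rag-KO + control (red circles) and in WT thymus (grey squares), each against the same 6 spleen and lung libraries; bars are standard errors. Lmo2, Pim2, Lrp12, Klf3 and Arl13b lie on the same side of 0 in both, whereas Retnla and Tppp3 lie on opposite sides, at 4.66 and 2.98 in Rag-KO + control and at -2.08 and -3.17 in WT thymus.

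The genes named in the study as marks of thymic eosinophils were 8. Of them 1, Hmgn2, was higher in Rag-KO + control, against 0.686% of all genes tested. The median change of the 8 was 1.42, against 0.23 over all genes tested. The study chose this list on libraries that include the spleen and lung libraries used here, so it is not independent evidence. Hmgn2, a nucleosome-binding protein, was at 257 and 472 RPKM against 96.2 to 195 in the periphery, with a change of 1.52 (SE 0.29, limma adjusted p = 0.0345), and at 366 to 555 in WT thymus. Hmgn2 lost its call in 9 of the 13 fits that left out 1 library, where its change ranged from 1.08 to 1.96 and its limma adjusted p reached 0.502. Il1rn, the interleukin-1 receptor antagonist, was at 435 and 169 RPKM against 22.4 to 116 in the periphery and 996 to 1658 in WT thymus. Its groups did not overlap, but the change of 2.10 did not pass (SE 0.53, limma adjusted p = 0.0933). Itgax, which encodes CD11c, was at 47.8 and 9.61 RPKM, a range that overlapped the 1.94 to 44.2 of the periphery, and at 206 to 259 in WT thymus. Cd34, a sialomucin of progenitors and endothelium, was at 29.9 and 7.16 RPKM, overlapped the periphery at 2.73 to 20.7, and was lower than WT thymus by 3.74 on the log2 scale (SE 0.65, limma adjusted p = 0.0172). Cxcr4, the receptor of CXCL12, was at 174 RPKM in the Rag2-/- library and 27.9 in the Rag1-/- library, against 29.4 to 169 in the periphery. Bcl2a1d and Fth1 did not pass either, with adjusted p of 0.219 and 0.334 in limma. A fit in the 9 libraries without the third WT libraries and Rag-KO + control replicate 2 leaves replicate 1 alone in its group. There the change was 1.94 for Itgax, 1.92 for Cd34, 3.04 for Il1rn and 3.59 for Bcl2a1d. It was 1.36 for Cxcr4 and 2.13 for Prg2, which is also among the 8. Without lung replicate 3, Il1rn passed with a change of 2.43 (limma adjusted p = 0.0125) and Bcl2a1d with 2.98 (limma adjusted p = 0.0160).

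Eosinophil genes were divided by role. Of 23 surface and lineage genes tested, 1 was higher and none was lower, against 0.686% and 0.143% of all genes tested, and the median change was 0.57, against 0.23 over all genes tested. The gene called was Il1rl1, the receptor of interleukin-33, at 56.6 and 50.6 RPKM in Rag-KO + control and at 18.2 to 28.7 in the periphery (change 1.2, SE 0.22, limma adjusted p = 0.0232). Of 6 granule proteins tested, 1 was higher, and all 6 were more than 2-fold higher in Rag-KO + control replicate 2 than in replicate 1 on the log2(RPKM + 1) scale, as were 693 of the 9763 genes tested. Epx, the eosinophil peroxidase, was at 7.64 and 340 RPKM against 0.0780 to 1.08 in the periphery (change 5.21, SE 0.97, limma adjusted p = 0.0300). Prg2, the major basic protein, was at 188 and 3648 RPKM against 32.9 to 206, and its change of 3.92 did not pass (limma adjusted p = 0.0662). It passed without spleen replicate 3, with a change of 4.33 (limma adjusted p = 0.0210), and without Rag-KO + control replicate 1, with 6.06 (limma adjusted p = 0.00252). Prg2 also passed with a term shared by the third WT libraries and Rag-KO + control replicate 2 (change 3.69, limma adjusted p = 0.0260) and in the 9 libraries without them (change 2.13, limma adjusted p = 0.00151). Among the eosinophil ribonucleases, Ear2 was at 37.5 and 532 RPKM against 24.0 to 178. These ribonucleases are near-identical copies, so how reads were divided among them is uncertain. Without replicate 2, the change of Epx was 2.55 and it was not called (limma adjusted p = 0.142). Of the type 2 cytokines, Il4 was at 33.6 and 31.7 RPKM and lay under all 6 peripheral libraries at 46.1 to 79.6, but did not pass (limma adjusted p = 0.193). Il5 was at 0 in all 8 libraries. Il13 was at 0.978 and 0.526 RPKM in Rag-KO + control and at 0 to 0.431 in the periphery, below the filter on low values.

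Interferon-stimulated genes showed the same split between the 2 Rag-KO + control libraries. Of 28 tested, 2 were higher and 13 lay above all 6 peripheral libraries, against 0.686% and 12.2% of all genes tested, and their median change was 1.79. Within the libraries compared with Rag-KO + control replicate 1 the median was 0.59, and within those compared with replicate 2 it was 2.96, where all genes tested had medians of 0.06 and 0.54. Ifit1, an antiviral protein that binds foreign RNA, was at 5.07 and 45.1 RPKM against 0.237 to 1.57 in the periphery (change 3.16, SE 0.56, limma adjusted p = 0.0217). Rsad2, which encodes viperin, was at 18.7 and 130.0 RPKM against 5.75 to 12.5 (change 2.59, SE 0.53, limma adjusted p = 0.0480). In both genes the lower Rag-KO + control library lay above every peripheral library, as the choice of the largest named changes required. Irf7, the regulator of type I interferon responses, was at 27.7 and 220 RPKM against 11.1 to 23.5 and did not pass (limma adjusted p = 0.133). By limma, 15 of the 28 genes were higher without Rag-KO + control replicate 1 and 0 without replicate 2 or without lung replicate 1.

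The windows before the starts of Ifit1 and Rsad2 are printed because both hold a match to the core letters of the interferon-stimulated response element. Capitals mark GAAA repeated after 2 bases of any kind, on either strand. Ifit1 held 2 matches and Rsad2 held 1, and 2.98% of all windows held at least 1.
Ifit1, chr19:34640639-34640888, plus strand, GRCm38.p6: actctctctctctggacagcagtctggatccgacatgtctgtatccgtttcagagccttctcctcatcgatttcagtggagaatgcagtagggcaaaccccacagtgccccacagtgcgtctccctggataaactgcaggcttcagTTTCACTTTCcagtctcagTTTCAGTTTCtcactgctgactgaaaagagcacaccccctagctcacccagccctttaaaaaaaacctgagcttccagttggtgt
Rsad2, chr12:26456453-26456702, minus strand, GRCm38.p6: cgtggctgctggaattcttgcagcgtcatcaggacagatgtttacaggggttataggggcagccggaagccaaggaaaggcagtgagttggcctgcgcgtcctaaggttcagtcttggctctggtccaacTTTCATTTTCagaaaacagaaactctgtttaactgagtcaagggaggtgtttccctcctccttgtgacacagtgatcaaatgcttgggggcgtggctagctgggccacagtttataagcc

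Of 16 genes of the MHC class I pathway, 2 were higher and 10 lay above all 6 peripheral libraries, against 0.686% and 12.2% of all genes tested. Their median change was 0.70, against 0.23 over all genes tested. The 2 that passed were H2-Q7, a Qa-2 class I molecule, at 258 and 463 RPKM against 26.4 to 77.3 (change 2.56, SE 0.37, limma adjusted p = 0.00668), and H2-Q6 at 162 and 255 against 14.7 to 54.0 (change 2.26, SE 0.40, limma adjusted p = 0.0219). H2-Q6 and H2-Q7 are near-identical copies, and the reads behind them may be the same. Lgals3bp, a secreted glycoprotein that binds galectin-3, was at 42.2 and 112 RPKM against 0.772 to 10.6 (change 3.30, SE 0.63, limma adjusted p = 0.0345). The classical molecules H2-K1 and H2-D1 were at 1281 and 2088 RPKM and at 3133 and 4008 RPKM in Rag-KO + control, and did not pass.

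Chemokine receptors and ligands were counted apart. Of 15 receptors tested, Ccr1 was the 1 that passed, where 0.686% of all genes tested were higher. It was at 177 and 186 RPKM against 38.9 to 82.5 in the periphery and 109 to 188 in WT thymus (change against the periphery 1.73, SE 0.33, limma adjusted p = 0.0342). The median change of the receptors was 0.09, against 0.23 over all genes tested. Of 17 ligands tested, 1 was higher and 4 lay above all 6 peripheral libraries, against 0.686% and 12.2% of all genes tested. The median change of the ligands was 2.29, with 2.61 against spleen and 1.125 against lung. Ccl8 was at 3.95 and 6.51 RPKM, from 12 and 21 reads, and at 0 in all 6 peripheral libraries. Against the 3 reads per library that a count of 0 allows, Ccl8 was at least 3.21-fold higher. The monocyte attractants Ccl2, Ccl7 and Ccl12 were at 82.2, 59.5 and 106 RPKM in replicate 2 and at 1.04, 0.420 and 0.313 in replicate 1, and none passed. Ccl9 was at 485 and 604 RPKM in Rag-KO + control, 149 to 253 in the periphery and 4.22 to 20.3 in WT thymus. It did not pass against the periphery (change 1.52, limma adjusted p = 0.161) and was 6.02 higher than WT thymus on the log2 scale (SE 0.52, limma adjusted p = 0.000396).

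Of 23 immediate early genes tested, 5 were higher, namely Fos, Egr1, Dusp1, Zfp36 and Junb, where 0.686% of all genes tested were. These genes encode early transcription factors of the AP-1 and Egr families and feedback inhibitors. Their change lay against spleen, and against lung it was 0.06 to 0.31 on the log2 scale. Spleen was mashed whereas thymus and lung were digested, and the part of preparation in these changes was not tested. Fos was at 2914 and 4111 RPKM in Rag-KO + control, at 25.6 to 38.1 in spleen and at 2017 to 3881 in lung. The change of Fos was 6.73 against spleen and 0.27 against lung. Egr1 was at 331 and 278 RPKM, at 0.562 to 3.36 in spleen and at 139 to 529 in lung. The Rag-KO + control and lung libraries overlapped in all 5 genes, so none of them separated thymus from both organs. Rgs1, a regulator of G protein signalling, showed 59.6 and 42.4 RPKM in Rag-KO + control, 1.02 to 4.20 in spleen and 9.37 to 48.2 in lung. The count of 5 was 10 without spleen replicate 3, 8 without lung replicate 3, 3 without Rag-KO + control replicate 1 and 2 without replicate 2.

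Of 28 cell cycle and replication genes tested, 3 were higher and none was lower, against 0.686% and 0.143% of all genes tested. Their median change was 1.12, against 0.23 over all genes tested, and 22 were more than 2-fold higher in Rag-KO + control replicate 2 than in replicate 1 on the log2(RPKM + 1) scale, against 693 of all 9763 genes tested. The 3 were the replicative helicase subunits Mcm2 and Mcm3 and Rrm1, a subunit of ribonucleotide reductase. Mcm3 was at 8.44 and 16.7 RPKM against 1.62 to 4.66 (change 1.70, SE 0.30, limma adjusted p = 0.0223). Mcm2 was at 4.86 and 11.8 RPKM against 0.408 to 3.38, and Rrm1 at 5.87 and 9.17 against 1.39 to 4.03. Mki67, the proliferation antigen, was at 0.335 and 0.252 RPKM in Rag-KO + control and at 0.271 to 0.652 in the periphery, below the filter on low values. Plk1, a mitotic kinase, was at 0.842 and 6.05 RPKM against 0 to 1.15 in the periphery and did not pass (limma adjusted p = 0.129). Cdca8, a subunit of the chromosomal passenger complex that is in no list and was named after its values were seen, was at 4.98 and 7.43 RPKM against 1.16 to 2.57 and passed (change 1.45, SE 0.23, limma adjusted p = 0.0119). The count of 3 was 8 without Rag-KO + control replicate 1 or without spleen replicate 3, and 0 without Rag-KO + control replicate 2 or without lung replicate 1.

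**Figure D4:**
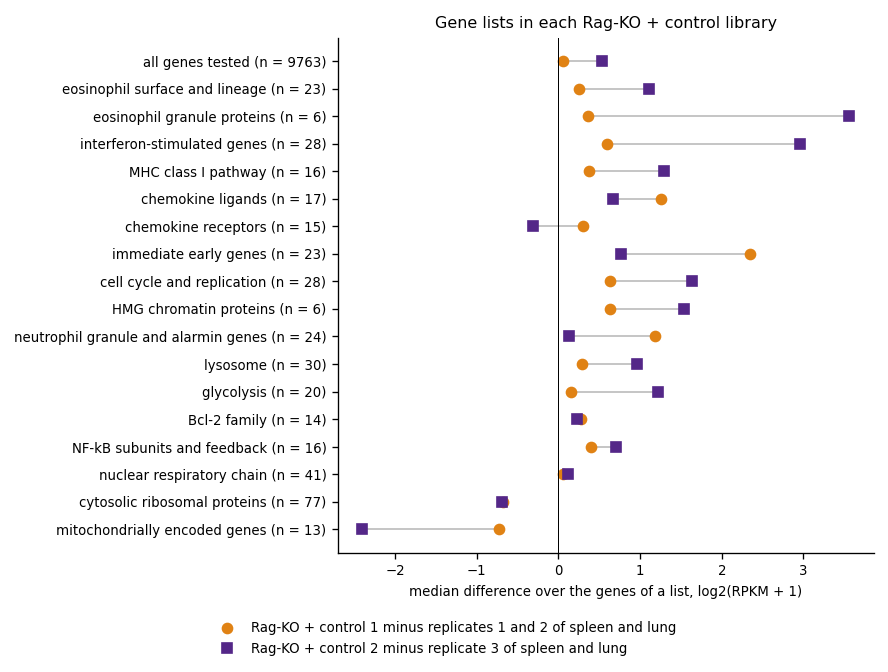
Median difference over the tested genes of each list, on the log2(RPKM + 1) scale, for Rag-KO + control 1 minus replicates 1 and 2 of spleen and lung (circles) and for Rag-KO + control 2 minus replicate 3 of spleen and lung (squares). The granule list lies at 0.36 and 3.56 and the interferon-stimulated list at 0.59 and 2.96, whereas the ribosomal protein list lies at -0.68 and -0.69.

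Of 12 serpins and genes of plasminogen activation tested, 1 was lower, against 0.143% of all genes tested. The other lower genes of this paragraph belong to no list that was tested. Serpinb1a, an inhibitor of neutrophil elastase and related proteases, was at 43.7 and 62.1 RPKM in Rag-KO + control and at 119 to 230 in the periphery (change -1.73, SE 0.23, limma adjusted p = 0.00484). WT thymus held Serpinb1a at 16.5 to 20.8 RPKM, and Rag-KO + control was higher than WT thymus by 1.42 (SE 0.26, limma adjusted p = 0.0221). Slpi, the secretory leukocyte protease inhibitor, was at 442 and 423 RPKM against 866 to 1125 (change -1.2, SE 0.24, limma adjusted p = 0.0457), with 351 to 573 in WT thymus. Arl13b, a small GTPase known from cilia, was at 4.10 and 5.39 RPKM against 13.5 to 33.2 (change -1.92, SE 0.27, limma adjusted p = 0.00637), with 3.17 to 3.70 in WT thymus. Klf3, a transcriptional repressor, was at 37.4 and 32.4 RPKM against 64.5 to 96.3 (change -1.25, SE 0.21, limma adjusted p = 0.0198), with 25.0 to 29.2 in WT thymus. Tcp11l2 was at 68.4 and 74.6 RPKM against 110.2 to 187 (change -1.06, SE 0.21, limma adjusted p = 0.0407). Cavin2 was the lower gene whose groups overlapped, since it was also near 0 in spleen.

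Nrarp and Slc40a1 were low in Rag-KO + control but not in WT thymus. Nrarp, a feedback inhibitor induced by Notch signalling, was at 3.06 and 1.29 RPKM in Rag-KO + control, 22.4 to 45.0 in spleen, 7.83 to 12.9 in lung and 18.1 to 22.3 in WT thymus. Its change was -2.72 against the periphery (SE 0.37, limma adjusted p = 0.00527) and -2.77 against WT thymus (SE 0.42, limma adjusted p = 0.00710). Slc40a1, the iron exporter ferroportin, was at 36.2 and 31.0 RPKM in Rag-KO + control, 56.3 to 173 in the periphery and 96.0 to 113 in WT thymus. Its change was -1.65 against the periphery (SE 0.28, limma adjusted p = 0.0181) and -1.62 against WT thymus (SE 0.31, limma adjusted p = 0.0255). Slc40a1 was the lower gene among 20 genes of iron and heme, where 0.143% of all genes tested were lower. It also stands in the macrophage and monocyte list.

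Of 77 cytosolic ribosomal proteins none passed (0 by limma and 0 by the fit on recovered reads, 29 at an unadjusted p under 0.05), although 28 lay below all 6 peripheral libraries, where 2.12% of all genes tested did. Their median change was -0.68, against 0.23 over all genes tested. Of 13 mitochondrially encoded genes none passed (0 by both fits, 10 at an unadjusted p under 0.05) and 10 lay below all 6 peripheral libraries, with a median of -1.39, and their summed level was 9757 and 6383 RPKM in Rag-KO + control and 10641 to 92796 in the periphery. The upper end of that range was spleen replicate 3.

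The 2 Rag-KO + control libraries did not carry the result equally. Among the 67 higher genes, 12 were more than 2-fold higher in replicate 2 than in replicate 1, none the other way and 55 within 2-fold. Each of the 67 was higher, and each of the 14 lower, in both Rag-KO + control libraries when each was set against its own peripheral libraries, which are libraries that the choice of the genes had used. Without Rag-KO + control replicate 2, 13 genes were higher and 1 was lower, of which 9 and 1 were among the 67 and the 14. Without replicate 1 the counts were 133 and 10, without spleen replicate 3 they were 186 and 49, and without lung replicate 3 they were 141 and 23. Retnla, Ecm1, Lmo2, Pim2, Fos, Adra2a, Adgrg5, Fam3b and Serpinb1a were called in all 13 fits that left out 1 library. Retnlg, Cfp, Naaladl1, Slc6a4, Lrp12, Slfn1, H2-Q7, Ccl8, Arl13b, Nrarp and Slc40a1 lost their call in 1 of these fits, that without Rag-KO + control replicate 2, and Zfp36 lost it without replicate 1. Spp1, Ifit1, H2-Q6, Egr1, Dusp1, Junb, Mcm2, Mcm3, Rrm1 and Klf3 lost it in 2 to 4 of the 13 fits. Lgals3bp, Il1rl1, Adora2a, Tppp3, Hmgn2, Epx, Ccr1, Rsad2, Slpi, Adora2b, Rgs1 and Tcp11l2 lost it in 7 to 11. No called gene changed its direction in any of these fits.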

How the data were processed

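RNA was measured in 13 libraries of sorted mouse eosinophils, of which 8 enter the main comparison. The authors prepared SMART-seq v4 libraries, sequenced them on an Ion Proton, mapped them to mm10 with CLC Genomics Workbench version 12 and deposited RPKM values per gene. How reads that map to several genes were divided is not given in the sources used here. Reads were recovered from the RPKM values with GENCODE M21 lengths (whole within 0.001 in every library for 5888 genes), which gave the library totals, and 3 reads is what a count of 0 allows, for counting error only. All 13 libraries entered 1 linear model of log2(RPKM + 1) on their 5 groups (R 4.3.3, limma 3.58.1, spread moderated by a trend on level), which left 8 residual degrees of freedom. Tested were the 9763 genes whose RPKM reached 1 in 2 or more libraries, with Benjamini-Hochberg adjustment over all of them. Calls needed an adjusted p below 0.05 together with a log2 change beyond 1 against the mean of spleen and lung, with the same sign against each. Fold changes are on the log2(RPKM + 1) scale and understate those of low genes.

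Libraries of 1 group were not stated to come from separate mice in the labels, so p-values measure the spread between these libraries. In bulk RNA, fewer cells of a type and less RNA per cell cannot be told apart. Within-library differences set Rag-KO + control replicate 1 against replicates 1 and 2 of spleen and lung, and replicate 2 against replicate 3, with no test. This split followed the deviations of the libraries from their group means, where Rag-KO + control replicate 2 correlated with the third libraries of WT thymus at 0.54, of spleen at 0.46 and of lung at 0.27. With 2 libraries, the deviations of replicate 1 are the same with the opposite sign. Whether these libraries share a preparation or a run is not given in the sources used here and was not tested. Named genes were those the study names, up to 15 higher and 15 lower called genes that did not overlap the periphery and had a mean RPKM of at least 10 in the higher group (predicted genes left out), ranked by the smaller of the changes against spleen and lung, and for each gene list up to 4 called members and up to 4 with the highest mean. The members and lists were chosen with earlier results of these data known. Other genes of the text stand outside these rules and were named after their values were seen, among them Cfp, Adora2a, Rgs1, Cavin2, Pros1, Irf7 and Plk1. The fit was tested on simulated data of 9430 genes in this comparison. There 49 of 50 genes raised 4-fold and 50 of 50 raised 8-fold were recovered. Of genes lowered, 39 of 50 at 4-fold and 46 of 50 at 8-fold were recovered, and 5 unchanged genes were called. The simulated reads were drawn independently for each library with a fixed spread, and the changed genes were taken from those with more reads. The real libraries deviated together, so this recovery does not give the power or error of the fit on them. Of the 81 called genes, 63 had a RefSeq promoter window, of 250 bases before the start.

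Alternatives changed the pseudocount, filter, scaling, trend, samples, peripheral grouping, call rule, replicate block and test, and left out each library. Added after the data were seen was voom on the recovered reads.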

Additional observations from a re-analysis of the deposited data

Results flagged for a closer look

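The change of thymic eosinophils against spleen and lung differed between Rag-KO + control and WT in 29 of the genes looked at here. The test was the limma contrast of Rag-KO + control minus WT thymus (adjusted p under 0.05 and a log2 change over 1). That contrast is the difference between both changes because the spleen and lung libraries are shared. Looked at were the genes named by rule and all genes called against spleen and lung, 67 higher and 14 lower. That choice used the same Rag-KO + control libraries, so the balance of higher and lower among the 29 is not a result. Over all genes tested, the contrast had 49 higher and 57 lower genes, which are 0.502% and 0.584%. Both groups come from thymus and were digested. Groups of 2 and 3 libraries are too small for the check for single outlying samples.

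Among these genes, those higher in Rag-KO + control were led by Retnla at 6.74, Tppp3 at 6.15 and the chemokine Ccl9 at 6.02 on the log2 scale. Most of those higher had been looked at because they were called higher than spleen and lung in the same libraries. Cfp differed by 3.60, Ecm1 by 3.84, the matrix protease Mmp9 by 3.40, Slc6a4 by 3.09, Adora2a by 3.01, Naaladl1 by 2.97, Adra2a by 2.93, the anticoagulant Pros1 by 2.89, Retnlg by 2.79 and Spp1 by 2.67. Smaller differences were 2.49 for 9130008F23Rik, 2.16 for Adgrg5, 2.03 for Mndal, 2.03 for Ccl8, 2.02 for the inhibitory receptor Cd200r1, 1.61 for Fam3b, 1.47 for Fam43a, 1.45 for the retinoic acid enzyme Aldh1a2 and 1.42 for Serpinb1a.

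Among the genes looked at, the carbonic anhydrase Car4 at -4.60, Cd34 at -3.74 and Nrarp at -2.77 were lower in Rag-KO + control. So were the inhibitory lectin Siglece at -2.59, the T cell coreceptor chain Cd8b1 at -2.34, the T cell kinase Lck at -1.90 and Slc40a1 at -1.62. Most of the 57 lower genes of the contrast were not looked at and are not listed here. Cd8b1 was at 0.113 and 0 RPKM in Rag-KO + control and at 1.57 to 10.3 in WT thymus, and Lck at 0.726 and 0.273 against 2.01 to 7.15. The 20 markers of thymocytes and T cells summed to 7.31 and 3.25 RPKM in Rag-KO + control and to 13.4 to 66.9 in WT thymus, and their part in these differences was not tested.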

How the results depend on the processing

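The counts of 67 higher and 14 lower genes moved with most settings. The pseudocount of 0.1 gave 42 higher and 12 lower genes, RPKM of at least 5 gave 40 and 9, quantile normalization 41 and 34, upper-quartile scaling 41 and 32, and the 8 libraries alone 12 and 0. The 6 peripheral libraries as 1 group gave 43 and 7, and calls against spleen and lung each on its own gave 30 and 5. A term shared by the third WT libraries and Rag-KO + control 2 gave 220 and 35, the 9 libraries without those libraries 327 and 111, and the fit without both WT spleen 3 and Rag-KO + control 2 gave 46 and 21. The study's Dunnett comparison on RPKM, with no adjustment over genes, gave 198 and 10. Voom on the recovered reads gave 73 and 8, of which 63 and 8 were among the 67 and 14. The pseudocount of 0.5 gave 48 and 12, no filter 59 and 11, no trend 70 and 14 and no fold limit 67 and 15. Leaving out 1 library gave 13 to 186 higher and 1 to 49 lower genes. The cause of these moves was not tested.

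The replicate numbers did not pair Rag-KO + control with spleen and lung, since its replicate 1 correlated in its deviations with their first libraries at 0.423 and 0.115, and its replicate 2 with their second libraries at -0.428 and -0.311. Among the WT organs the same-numbered libraries correlated at 0.296 to 0.574. With the replicate block 156 genes were higher and 41 lower, and 66 and 14 were the same genes. Of the named genes that were not called, Bcl2a1d (3.09, limma adjusted p = 0.0112), Il1rn (2.35, limma adjusted p = 0.0286) and Prg2 (4.14, limma adjusted p = 0.0440) were called with the block. The direction of Cxcr4, which is -0.02 and was not called, turned to 0.019 with the replicate block and 0.045 with the shared term, and to 1.36 in the 9 libraries and 1.41 without both WT spleen 3 and Rag-KO + control 2, where it was called. Without a single library it ranged from -1.33 to 1.28, with 0.109 without WT spleen replicate 3, 0.062 without WT lung replicate 1 and 1.28 without Rag-KO + control replicate 2. That of Il5ra, 0.54 and not called, ranged from -0.16 without Rag-KO + control replicate 1 to 1.24 without replicate 2. No called gene reversed under any alternative, and 7 of the 81 kept their call in every refit. Rag-KO + control has 2 libraries of different genotypes, which limits every result here.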

Other observations

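Genes outside the groups described above also passed, where 0.686% of all genes tested were higher. In lipid mediator synthesis, 1 of 13 genes tested was higher, Ltc4s, the leukotriene C4 synthase, at 7.78 and 4.95 RPKM in Rag-KO + control, 0 to 2.12 in the periphery and 5.28 to 9.36 in WT thymus (change against the periphery 2.33, SE 0.44, limma adjusted p = 0.0310). Among cytokines and growth factors, 1 of 14 was higher, Il27, a subunit of interleukin-27, at 3.79 and 5.43 RPKM against 0.206 to 1.48 (change 1.69, SE 0.29, limma adjusted p = 0.0216). Il18bp, the soluble inhibitor of interleukin-18, was at 2.28 and 8.69 RPKM against 0.361 to 1.07. Of 20 glycolysis genes, 1 was higher, Pgam1, a phosphoglycerate mutase, at 133 and 408 RPKM against 39.6 to 72.4 (change 2.02, SE 0.42, limma adjusted p = 0.0480). Of 30 lysosomal genes, 0 passed in limma, 0 with voom and 8 reached an unadjusted p under 0.05, while 9 lay above all 6 peripheral libraries, where 12.2% of all genes tested did. The unadjusted p was under 0.05, with the same sign against each organ, for 1340 of all 9763 genes tested.

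Prss16, a serine protease of thymic cortical epithelium, was at 1.76 and 3.04 RPKM in Rag-KO + control, at 0 in 5 of the 6 peripheral libraries and at 0.813 to 3.45 in WT thymus. It was the 1 of 6 tested markers of thymic epithelium that passed, and 3 of the 6 lay above all 6 peripheral libraries, against 0.686% called higher and 12.2% above all 6 over all genes tested. Of these, Ccl25 was at 2.23 and 1.33 RPKM against 0.146 to 0.417 and Krt8 at 2.41 and 2.10 against 0 to 1.16. The 12 markers summed to 33 and 19.8 RPKM in Rag-KO + control, 8.03 to 40.2 in the periphery and 31.2 to 64.8 in WT thymus, with Epcam and Foxn1 at 0.307 or lower in Rag-KO + control, and their part in the results was not tested. Myb, a transcription factor of progenitors, was at 2.63 and 4.37 RPKM against 0 to 0.862 in the periphery and at 4.78 to 5.53 in WT thymus, and was named after its values were seen. Without a single library, Myb lost its call in 1 fit, Il27 in 2, Prss16 in 3, Ltc4s in 7, Pgam1 in 9 and Il18bp in 10 of 13.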
